A study of Mus musculus with 9 samples.

Results

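The genes described here are 6 transcription factor genes of the ETS family, Etv1, Etv4, Etv5, Ets1, Ets2 and Elk3, in cultured adult mouse neural stem cells (NSCs). They were picked by name out of 55704 genes in the expression table, with their FPKM (fragments scaled by exon length and library size) in these libraries already known, so their levels and differences are given as a description with no test. All 6 were among the 20207 genes that passed the filter, a level averaging 0.1 FPKM or more over the 9 libraries. NSCs from the subventricular zone of C57BL/6 mice aged 8 to 9 weeks were passaged at least 3 times and then grown attached for 16 to 18 hours with bFGF and EGF. Bulk RNA-seq was done on 3 libraries of these bFGF/EGF-treated NSCs at day 0, on 3 libraries after EGF had been replaced with BMP4 for 6 days (bFGF/BMP4-treated NSCs), and on 3 libraries after both factors had been replaced with BMP4 for 6 days (BMP4-treated NSCs). Each factor was used at 20 ng/mL, the labels name no engineered allele, and cells of 2 female and 2 male mice were pooled in an isolation. The submitters call the 3 samples of a group biological replicates without saying whether they came from separate isolations, so the spread between them may be partly technical. The comparison of BMP4-treated with bFGF/BMP4-treated NSCs is the only one in which time in culture is the same and only bFGF differs, and the day 0 group differs from both others in time as well as in factors.

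ETS factors share a winged helix-turn-helix domain that binds DNA around a GGAA core. Etv1, Etv4 and Etv5 form the PEA3 subgroup, whose genes are typical transcriptional outputs of FGF receptors acting through the RAS/ERK cascade. The repressor Capicua (Cic) binds the octamers TGAATGAA and TCAATGAA, holds PEA3 genes down and is relieved of this activity when ERK is active. Ets1 and Ets2 are activators that ERK phosphorylates directly, and Elk3 is a ternary complex factor that binds DNA together with serum response factor (Srf). In neural precursors Etv5 and Etv4 are commonly read as signs of FGF signalling.

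The promoters of 3 of the 6 genes held the TGAATGAA octamer, and the stretches around it are shown because they are what Etv4, Etv5 and Ets1 shared in sequence and Etv1, Ets2 and Elk3 lacked. In the GRCm39 genome, the 1000 bases before the canonical transcription start held 2 copies in Etv4, starting 174 and 119 bases before it, 1 copy in Etv5, 195 bases before it, and 1 copy in Ets1, 348 bases before it. The stretches are chr11:101676268-101676417 on the minus strand for Etv4, chr16:22258584-22258733 on the minus strand for Etv5 and chr9:32606917-32607006 on the plus strand for Ets1, each read in the direction of transcription with the octamer in capitals.
Etv4: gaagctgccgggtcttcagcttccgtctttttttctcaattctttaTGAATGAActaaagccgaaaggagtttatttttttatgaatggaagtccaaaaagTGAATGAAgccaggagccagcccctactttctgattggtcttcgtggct
Etv5: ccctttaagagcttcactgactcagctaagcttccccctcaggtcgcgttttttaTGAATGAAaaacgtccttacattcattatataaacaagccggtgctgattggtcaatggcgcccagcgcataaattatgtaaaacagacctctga
Ets1: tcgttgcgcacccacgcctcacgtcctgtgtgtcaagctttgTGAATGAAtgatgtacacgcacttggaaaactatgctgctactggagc

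The Etv4 stretch overlaps an exon of Gm39392 and the Etv5 stretch an exon of Gm59753, both non-coding genes on the other strand. The canonical starts of Etv1, Etv5 and Ets1 lie inside the span of the gene, and windows before other starts were not searched. All 4 copies read in the direction of transcription. Searched on both strands, with overlapping copies counted, TGAATGAA was found in the same window of 6.63% of 21627 protein-coding promoters, and 0.781% held at least 2 copies, as Etv4 did. Within 250 bases of the start the share was 1.22%, and Etv4 and Etv5 were among these. The TCAATGAA octamer stood in 3.27% of promoters and in none of the 6. CCGGAA, an extended ETS core, stood in 22.5% of promoters and once in Etv1, 560 bases before its start. A CArG box, the element bound by Srf, stood in 5.67% of promoters and once in Etv1, 940 bases before its start. The bare GGAA core was in 99.99% of promoters and in all 6 genes, with 11 to 15 copies, so it sets none of them apart. A match is a run of letters in a window and was not measured as a binding site.

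The 6 genes lie on 5 chromosomes. In GRCm39, Etv1 spans chr12:38828851-38920483 on the plus strand, Etv4 chr11:101660568-101676197 on the minus strand and Etv5 chr16:22200052-22259662 on the minus strand. Ets1 spans chr9:32547517-32669116 on the plus strand, Ets2 chr16:95502847-95522095 on the plus strand and Elk3 chr10:93083276-93147056 on the minus strand. Ets1 and Ets2 each have another ETS gene as a neighbour, Fli1 at 93360 bases from Ets1 and Erg at 115395 bases from Ets2. No stretch of 50 bases in the exons of the 6 genes was shared with an exon of another ETS gene. The strand setting of the counting is not given in the sources used here, and Elk3 shares 1126 exon bases with Cdk17 on the other strand, so fragments there could not be told apart. Cdk17, a cyclin-dependent kinase gene, was at 33.2 FPKM at day 0, 18.9 with bFGF/BMP4 and 31.6 with BMP4 alone. Elk3 averaged 24.2 FPKM at day 0, 15.5 with bFGF/BMP4 and 13.0 with BMP4 alone. Both genes were thus lower with bFGF/BMP4 than at day 0, and only Cdk17 was higher again with BMP4 alone. Whether Cdk17 fragments add to the level of Elk3 was not tested. Non-coding genes on the other strand also share exon bases with members: Gm39392 312 with Etv4, Gm59753 636 with Etv5 and Gm65981 484 with Elk3. They are absent from the expression table, and whether their fragments add to these levels was not tested.

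Each library held 15892854 to 17419822 fragments on genes, by the whole numbers found from the FPKM values. The labels were checked on 9 targets of BMP signalling, such as Nog and Smad6, and all 9 rose in both groups given BMP4, by a median of 4.54 on the log2 scale in bFGF/BMP4- and 4.0 in BMP4-treated NSCs. Of 10 NSC markers, Gfap, which is also an astrocyte marker, had a mean of 2566 FPKM in BMP4-treated NSCs against 19.4 in bFGF/BMP4-treated NSCs, and Nes (nestin) had means of 151 FPKM at day 0, 3.55 with bFGF/BMP4 and 15.8 with BMP4 alone. Sox2, another NSC marker, had means of 167, 137 and 137 FPKM in the same order. Of the 10, 2 rose and 4 fell in bFGF/BMP4- and 3 rose and 1 (Nes) fell in BMP4- compared with bFGF/EGF-treated NSCs. In BMP4- compared with bFGF/BMP4-treated NSCs 5 rose. These counts were 60%, 40% and 50% of the list, beside 30.6%, 36.6% and 13.5% of all genes. Ets1 is also known from endothelial cells and lymphocytes. The endothelial genes Cdh5 and Cldn5 and the microglial genes Csf1r, Aif1, Itgam, Trem2, C1qa and Tyrobp had at most 3 fragments in every library. The 11 endothelial markers summed to 0.766 to 4.46 FPKM, and the highest of them was Kdr, with means of 0.152 FPKM at day 0, 1.18 with bFGF/BMP4 and 3.31 with BMP4 alone. Egfl7 was highest at day 0, with means of 0.592, 0.0719 and 0.120 FPKM in the same order, and fell in both comparisons with bFGF/EGF-treated NSCs. Vwf, at 0.0447, 0.397 and 0.107 FPKM, rose in bFGF/BMP4-treated NSCs. Of 4 endothelial markers tested, 2 rose and 1 fell in bFGF/BMP4- and 1 rose and 1 fell in BMP4- compared with bFGF/EGF-treated NSCs. Between BMP4- and bFGF/BMP4-treated NSCs 1 rose and 1 fell. These counts were 75%, 50% and 50%, beside 30.6%, 36.6% and 13.5% of all genes. The part of endothelial cells in the level of Ets1 was not tested. The 8 mural markers summed to 3.24 to 21.3 FPKM, mostly Notch3 in every group. Notch3 had means of 3.52 FPKM at day 0, 18.7 with bFGF/BMP4 and 16.7 with BMP4 alone, and Kcnj8, Abcc9, Anpep and Higd1b were at 3 fragments or fewer. The 10 microglial markers summed to at most 1.77 FPKM, with Tmem119 highest at 1.34 in BMP4-treated NSCs. Tmem119 rose and P2ry12 fell in both comparisons with bFGF/EGF-treated NSCs. P2ry12 had means of 0.561 FPKM at day 0, 0.153 with bFGF/BMP4 and 0.225 with BMP4 alone.

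Etv5 was the most abundant ETS transcript wherever bFGF was present. With bFGF and EGF its 3 libraries stood at 209.9, 243.8 and 165.2 FPKM, with bFGF/BMP4 at 164.8, 154.4 and 174.8, and with BMP4 alone at 6.84, 7.81 and 14.4. The first 2 groups overlapped, and every BMP4 library was far below both, including replicate 3, the highest of them. The means were 206 ± 39.4, 165 ± 10.2 and 9.67 ± 4.09 FPKM (SD, n = 3), so Etv5 was 17.0 times lower in BMP4- than in bFGF/BMP4-treated NSCs and 21.3 times lower than in bFGF/EGF-treated NSCs. On the log2(FPKM + 0.1) scale these differences were -4.15 and -4.46, each with a standard error of 0.25, while bFGF/BMP4- and bFGF/EGF-treated NSCs differed by -0.31 ± 0.25.

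Etv4, its closest relative in this set by pattern, had the steepest difference. The day 0 libraries had 37.0, 41.2 and 32.4 FPKM, those with bFGF/BMP4 had 36.0, 35.2 and 37.0, and those with BMP4 alone had 0.357, 0.656 and 0.957. The bFGF/BMP4 libraries lay inside the range of the bFGF/EGF libraries, and in BMP4-treated NSCs the transcript was down to 18 to 49 fragments per library. The ratio of the means was 54.9 between bFGF/BMP4- and BMP4-treated NSCs and 56.1 between bFGF/EGF- and BMP4-treated NSCs. The log2 differences were -5.66 and -5.69, and -0.03 between the groups with bFGF, with a standard error of 0.25. With a pseudocount of 1 in place of 0.1, the first 2 were -4.50 and -4.52, since the BMP4 libraries were close to the pseudocount.

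Etv1, the third PEA3 gene, was in FPKM the lowest of them where bFGF was present. It had 7.06, 4.84 and 6.45 FPKM at day 0, 3.57, 3.41 and 3.62 after bFGF/BMP4, and 0.699, 0.469 and 0.734 after BMP4 alone. Unlike the levels of Etv4 and Etv5, its 3 groups did not overlap anywhere and formed 2 steps. The step from bFGF/EGF to bFGF/BMP4 was -0.76 ± 0.20 (SE) on the log2 scale, and the step from bFGF/BMP4 to BMP4 was -2.33 ± 0.20, or -1.48 with a pseudocount of 1. The BMP4 libraries held 101 to 161 fragments of Etv1.

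The balance among the PEA3 genes also differed between groups. The level of Etv5 was 5.09 to 5.92 times that of Etv4 in the bFGF/EGF libraries, 4.38 to 4.72 times with bFGF/BMP4 and 11.9 to 19.2 times in the BMP4 libraries, with no overlap. Etv4 was 10.1 to 10.3 times as high as Etv1 in bFGF/BMP4-treated NSCs, 5.03 to 8.52 times in bFGF/EGF-treated NSCs and 0.511 to 1.40 times in BMP4-treated NSCs. FPKM divides fragments by an exon length, and the annotation release behind those lengths is not given. The size of a ratio between genes depends on that annotation, while its differences between groups do not.

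Ets1 had a different order, with its largest step between the groups that both had bFGF. Its FPKM was 18.3, 16.7 and 13.8 at day 0, then 1.92, 2.11 and 2.17 with bFGF/BMP4 and 0.501, 0.605 and 1.15 with BMP4 alone. No 2 groups overlapped, and the bFGF/BMP4 libraries lay 7.87 times below the bFGF/EGF libraries by their means. The log2 difference there was -2.91 ± 0.25 (SE). A second, smaller step of -1.42 ± 0.25 separated BMP4- from bFGF/BMP4-treated NSCs, which was -1.73 without BMP4 replicate 3, the highest of its group, and -0.82 with a pseudocount of 1.

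Ets2 measured 6.37, 8.08 and 7.34 FPKM at day 0, against 2.35, 3.08 and 3.01 with bFGF/BMP4 and 2.54, 2.42 and 1.98 with BMP4 alone. Both BMP4-containing groups lay below the bFGF/EGF libraries and overlapped with each other. The log2 differences from bFGF/EGF-treated NSCs were -1.34 ± 0.17 and -1.61 ± 0.17 (SE), and BMP4- and bFGF/BMP4-treated NSCs differed by -0.27 ± 0.17.

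Elk3 was the steadiest of the 6, with 24.1, 24.2 and 24.3 FPKM at day 0, 11.8, 16.1 and 18.5 under bFGF/BMP4, and 12.2, 13.6 and 13.2 under BMP4 alone. As with Ets2, the bFGF/EGF libraries were the highest and the other groups overlapped. The differences from bFGF/EGF-treated NSCs were -0.67 ± 0.15 and -0.89 ± 0.15 (SE), both under 2-fold, and that between BMP4- and bFGF/BMP4-treated NSCs was -0.23 ± 0.15.

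**Figure D1:**
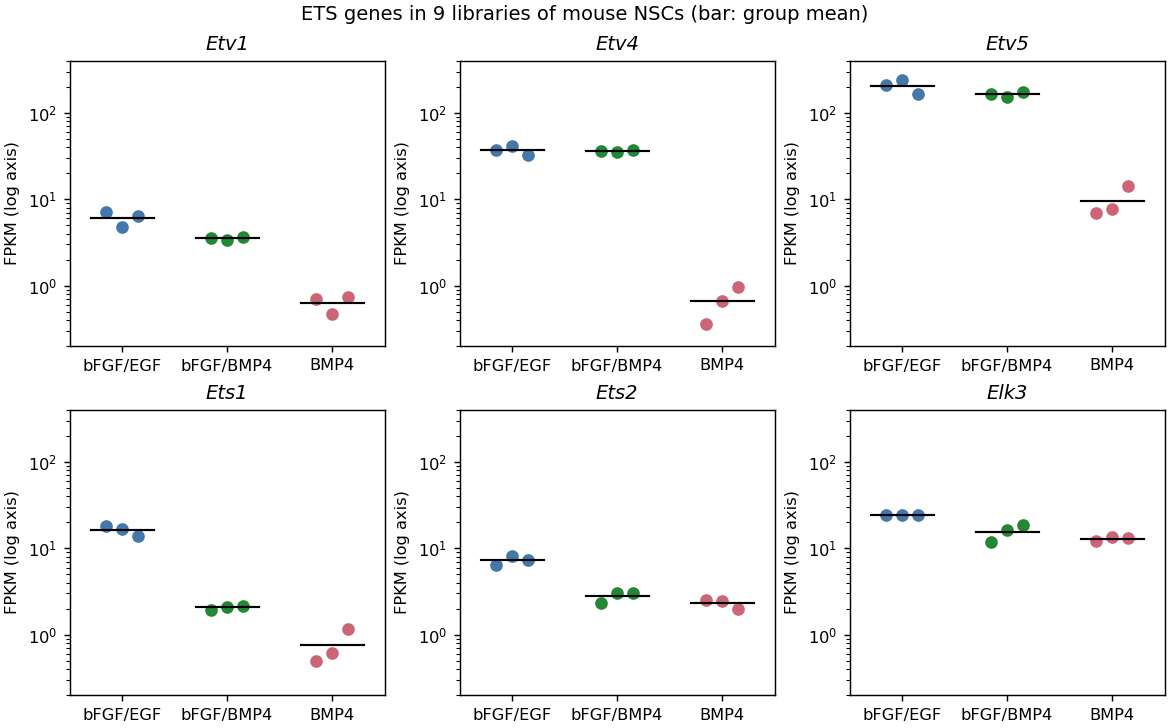
FPKM (log axis) of the 6 genes in each library, with 1 point per library and a bar at the mean of the 3 libraries of a group. Etv4 and Etv5 are low only in the BMP4 libraries, at means of 0.657 and 9.67 FPKM, Etv1 and Ets1 form 2 steps, and Ets2 and Elk3 are highest in the bFGF/EGF libraries with the other groups overlapping.

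Past the threshold used for all genes, an adjusted p of at most 0.05 with a fold change of at least 2, were 2 of the 6 genes in bFGF/BMP4- compared with bFGF/EGF-treated NSCs (Ets1 and Ets2), all lower, beside 14.1% of all tested genes lower. In BMP4- compared with bFGF/EGF-treated NSCs, 5 of 6 were past it, all but Elk3, beside 15.4% of all genes lower. When BMP4- was set against bFGF/BMP4-treated NSCs, 4 of 6 were past it, Etv1, Etv4, Etv5 and Ets1, beside 5.14% of all genes lower. The genes were chosen with these comparisons known, so the counts are no evidence about them. The medians of the 6 log2 differences were -0.71, -3.71 and -1.87 in the same order, beside 0.06, 0.10 and 0.00 over all genes. Groups without overlap, the first below the second, were found for 4, 6 and 4 of the 6 genes, beside 27.5%, 27.8% and 18.3% of all genes.

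Within groups, the 6 genes did not vary alike. BMP4 replicate 3 was the highest library of its group for Etv1, Etv4, Etv5 and Ets1, and the lowest for Ets2. Among bFGF/EGF libraries, replicate 3 was the lowest for Etv4, Etv5 and Ets1, and for Elk3 the 3 libraries differed by an SD of only 0.0668 FPKM. The oligodendrocyte lineage factor Olig2 had the same highest BMP4 library, at 20.3, 24.4 and 50.3 FPKM in replicates 1 to 3, after 195, 218 and 323 in the bFGF/BMP4 libraries. The 10 oligodendrocyte lineage markers, mostly Olig1 and Olig2, summed to 1582 to 2292 FPKM at day 0, 1358 to 1829 under bFGF/BMP4 and 276 to 471 under BMP4 alone, with Mog and Mag at 3 fragments or fewer throughout. Of the 8 of these markers that were tested, 4 fell and 1 rose in bFGF/BMP4- and 5 fell and 1 rose in BMP4- compared with bFGF/EGF-treated NSCs. From bFGF/BMP4- to BMP4-treated NSCs 2 fell and 1 rose. These counts were 62.5%, 75% and 37.5% of the list, beside 30.6%, 36.6% and 13.5% of all genes. Summed levels of 9 neuron markers were 78.5 to 94.7 FPKM at day 0, 48.1 to 53.7 with bFGF/BMP4 and 143 to 214 with BMP4 alone, mostly Tubb3 in the BMP4 libraries. Of 8 neuron markers tested, 0 rose and 3 fell in bFGF/BMP4- and 2 rose and 3 fell in BMP4- compared with bFGF/EGF-treated NSCs. These were 37.5% and 62.5%, beside 30.6% and 36.6% of all genes. Between BMP4- and bFGF/BMP4-treated NSCs 3 rose and 1 fell, 50% beside 13.5% of all genes. In bulk RNA, fewer cells of a type and less RNA per cell cannot be told apart, and the part of these cell types in the levels of Etv4 and Etv5 was not tested.

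The make-up of ETS RNA was then compared over the 26 ETS genes of the table. Their summed level was 379 ± 49.99 FPKM at day 0, 291 ± 12.9 with bFGF/BMP4 and 91.5 ± 7.07 with BMP4 alone (SD, n = 3). The 6 genes made up 78.3% ± 1.90, 77.2% ± 0.996 and 29.4% ± 3.12 of it, and Etv1, Etv4 and Etv5 alone 65.6% ± 2.95, 70.2% ± 1.35 and 11.8% ± 3.80. The sum of the other 20 genes was 81.7 ± 7.49, 66.2 ± 0.306 and 64.5 ± 2.97 FPKM. In bFGF/EGF-treated NSCs the order of levels was Etv5, then Etv4 and Erf with overlapping libraries, then Elk3, then Ets1 and Gabpa, which overlapped. In bFGF/BMP4-treated NSCs it was Etv5, Etv4, then Gabpa, Elk3 and Erf, neighbours that overlapped. In BMP4-treated NSCs Erf and Gabpa led with overlapping libraries at means of 14.8 and 14.6 FPKM, followed by Elk3 at 13.0 ± 0.732 and Etv5 at 9.67 ± 4.09. The libraries of Etv5 overlapped with those of Elk3, and its highest, at 14.4 FPKM, was above the lowest of Erf, at 13.9.

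**Figure D2:**
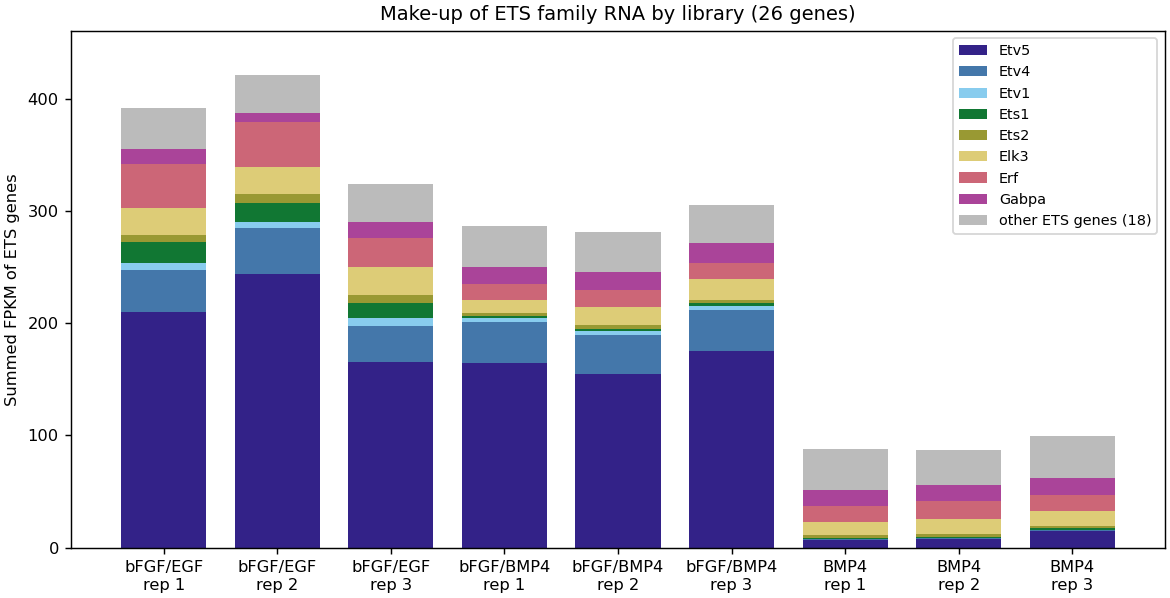
Summed FPKM of the 26 ETS genes in each of the 9 libraries, stacked by gene, with 18 less abundant genes together in grey. The bars of the BMP4 libraries reach 86.9 to 99.7 FPKM against 280.8 or more in every other library, and most of the missing height is Etv5 and Etv4.

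The 20 other ETS genes were no members of the set and were tested with limma over all genes. Of these, 12 passed the filter, and Etv2, Fli1, Fev, Elf3, Elf5, Spi1, Spib and Spic did not. Erf, an ETS repressor that ERK keeps out of the nucleus, fell by 1.22 ± 0.16 (SE, log2) in bFGF/BMP4- compared with bFGF/EGF-treated NSCs, with adjusted p = 0.00016, and by the same 1.22 in BMP4-treated NSCs, with adjusted p = 0.00013. Its levels were 39.3, 39.9 and 25.8 FPKM in the bFGF/EGF libraries and between 13.9 and 15.8 in all others. Elf1 rose by 1.65 ± 0.16 and 1.84 ± 0.16 in the same comparisons (adjusted p = 1.9e-05 and 6.4e-06), from 1.15 to 1.56 FPKM to between 3.92 and 5.17.

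Ehf, known as an epithelial ETS gene, had no fragment in any bFGF/EGF library, 18 to 36 with bFGF/BMP4 and 75 to 97 with BMP4 alone. Against a floor of 3 fragments per library it was at least 10.4-fold higher in bFGF/BMP4- and at least 30.5-fold higher in BMP4-treated NSCs (limma, adjusted p = 0.00038 and 1e-05), and these calls were lost with a pseudocount of 1. Where only bFGF differed, it was the 1 other ETS gene past the threshold, with a log2 difference of 1.34 ± 0.31 (adjusted p = 0.013), and with 0 genes lower (1 at an unadjusted p under 0.05, 0 by limma-voom). The call was lost with a pseudocount of 1 (0.57), without BMP4 replicate 1 (1.27) or without bFGF/BMP4 replicate 3 (1.13). Erg, an ETS gene of endothelial cells, had 10 to 21 fragments per library at day 0, 0 with bFGF/BMP4 and 0 to 6 with BMP4 alone. It was at least 4.83-fold lower in bFGF/BMP4-treated NSCs (adjusted p = 0.0043) and fell by 1.38 ± 0.42 in BMP4-treated NSCs (adjusted p = 0.018), a call lost without BMP4 replicate 1 (-1.13), and both were lost with a pseudocount of 1.

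The remaining 8 tested genes passed the threshold in none of the 3 comparisons. Etv6 was at 6.58 to 8.59 FPKM over the 9 libraries, Elk1 at 4.90 to 8.27, Etv3 at 2.57 to 3.36, Elf2 at 5.47 to 9.14 and Gabpa at 8.11 to 17.5. Elk4, like Elk3 a ternary complex factor, was at 8.61 ± 0.785 FPKM in bFGF/EGF- and 5.68 ± 0.732 in BMP4-treated NSCs, a log2 difference of -0.60 ± 0.13 that had an adjusted p of 0.0032 but was under 2-fold. Elf4 and Spdef were at or under 0.344 FPKM in all libraries. Of the 12, 4 were past the threshold in each comparison with bFGF/EGF-treated NSCs, 2 higher and 2 lower, or 33.3%, beside 30.6% and 36.6% of all genes. In the comparison of the BMP4-containing groups it was 8.33% beside 13.5%.

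**Figure D3:**
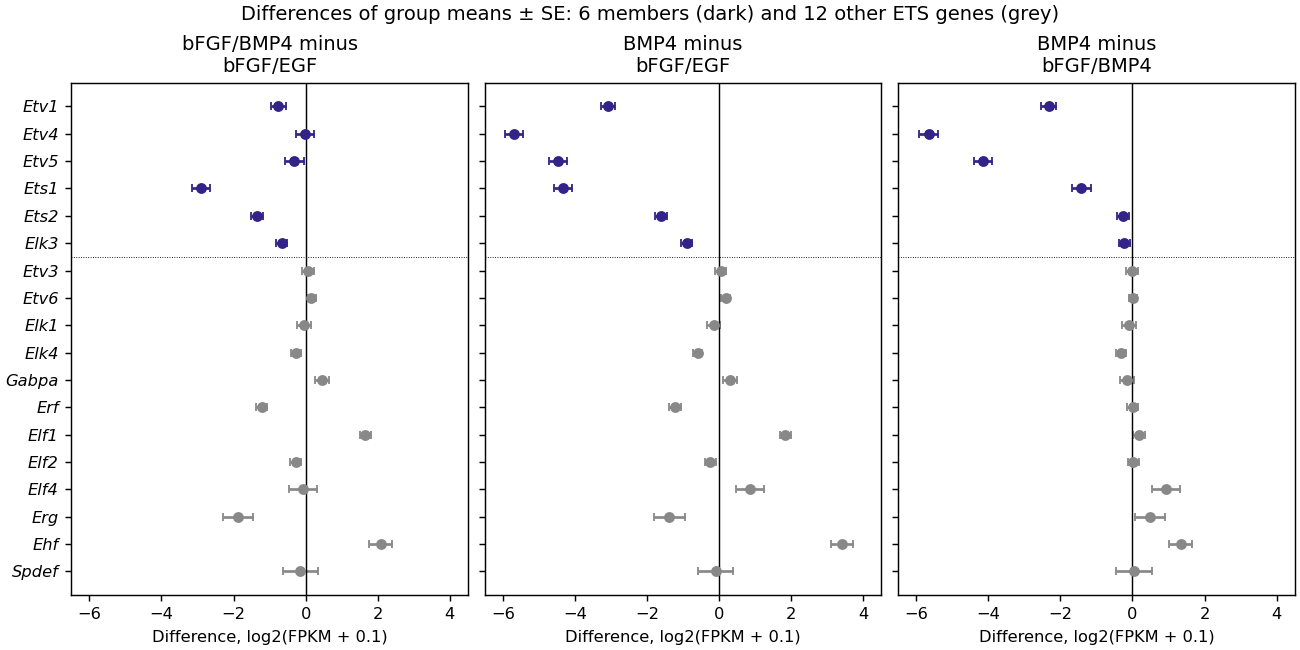
Differences of group means on the log2(FPKM + 0.1) scale with standard errors, for the 6 genes (dark) and the 12 other ETS genes tested (grey) in the 3 comparisons. Between BMP4- and bFGF/BMP4-treated NSCs, Etv4 at -5.66, Etv5 at -4.15, Etv1 at -2.33 and Ets1 at -1.42 lie left of all grey points, and Ehf at 1.34 lies farthest right.

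Genes known to act on ETS factors or with them were then tested. Cic, the repressor that reads the octamers shown above, had 20.9, 22.7 and 21.1 FPKM at day 0, 20.6, 18.2 and 19.3 with bFGF/BMP4 and 20.0, 12.9 and 20.7 with BMP4 alone. The log2 difference between BMP4- and bFGF/BMP4-treated NSCs was -0.14 ± 0.17 (limma, adjusted p = 0.62). Atxn1, whose protein forms a complex with Capicua, rose by 3.06 ± 0.21 in bFGF/BMP4- and by 2.66 ± 0.21 in BMP4-treated NSCs compared with bFGF/EGF-treated NSCs (adjusted p = 2.2e-06 and 3.6e-06), from 0.404 to 0.600 FPKM to between 3.49 and 6.09. Srf, the partner of Elk3, fell by 1.40 ± 0.16 and 1.23 ± 0.16 (adjusted p = 5.8e-05 and 0.00011), from 17.3 ± 2.82 FPKM to 6.44 ± 0.727 and 7.30 ± 0.902. These were the only genes of 15 tested past the threshold in those comparisons, 13.3% of the list in each, beside 30.6% and 36.6% of all genes. In BMP4- compared with bFGF/BMP4-treated NSCs limma called 0 of the 15, with 1 higher and 1 lower at an unadjusted p under 0.05 and 0 by limma-voom, and 1 was called higher without BMP4 replicate 3, Runx2, a partner of Ets1 named here after its values were seen (0.138 ± 0.0662 and 0.399 ± 0.218 FPKM with bFGF/BMP4 and BMP4).

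The FGF/ERK pathway upstream and beside the ETS genes was described by role from lists of its textbook genes. Of 18 receptors and adaptors, 4 rose and 1 fell in bFGF/BMP4-, and 3 rose and 2 fell in BMP4- compared with bFGF/EGF-treated NSCs, a median of 0.61 and 0.36 on the log2 scale. Both counts were 27.8% of the list, beside 30.6% and 36.6% of all genes. The receptor gene Egfr fell by 2.75 ± 0.16 in both (limma, adjusted p = 8.9e-07 and 6.3e-07), to 6.32 ± 0.885 and 6.34 ± 1.24 FPKM from 42.7 ± 1.94. Fgfr2, a receptor for FGFs, rose by 2.70 ± 0.25 and 3.72 ± 0.25 (adjusted p = 1.8e-05 and 1.6e-06), and by a further 1.01 ± 0.25 between bFGF/BMP4- and BMP4-treated NSCs (adjusted p = 0.017). Its mean was highest, at 17.6 ± 0.295 FPKM, in BMP4-treated NSCs. The FGF receptor gene Fgfr1 had means of 23.4 FPKM at day 0, 47.0 with bFGF/BMP4 and 32.1 with BMP4 alone. Those of Fgfr3 were 19.5, 32.2 and 30.7 FPKM in the same order.

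In BMP4- compared with bFGF/BMP4-treated NSCs, where only bFGF differed, 2 receptors and adaptors rose and 1 fell, 16.7% beside 13.5% of all genes. Erbb3, which pairs with other receptors of the EGF family, rose by 1.68 ± 0.34 (adjusted p = 0.0055) from a low level, and Fgfrl1, a FGF receptor without a kinase domain, fell by 1.42 ± 0.27 (adjusted p = 0.0037). Gab2, an adaptor, fell by 1.01 ± 0.14 in BMP4- compared with bFGF/EGF-treated NSCs (adjusted p = 0.00017), and Fgfrl1 rose by 2.41 ± 0.27 in bFGF/BMP4-treated NSCs (adjusted p = 5.2e-05).

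The kinases and RAS genes of the cascade were next. Of 17 tested, 2 rose and 3 fell in bFGF/BMP4- and 4 rose and 0 fell in BMP4- compared with bFGF/EGF-treated NSCs. These counts were 29.4% and 23.5% of the list, beside 30.6% and 36.6% of all genes. At an adjusted p of at most 0.05 without the fold threshold, 5 were higher and 8 lower in BMP4-treated NSCs. With the fold threshold limma-voom called 3 higher and 1 lower there. Mras, a RAS relative, rose by 2.77 ± 0.13 and 1.79 ± 0.13 (adjusted p = 2e-07 and 2.1e-06), and Map2k1, the MEK1 gene, by 1.02 ± 0.16 and 1.44 ± 0.16 (adjusted p = 0.0005 and 3.8e-05). Rps6ka1, a kinase downstream of ERK, and Nras fell in bFGF/BMP4-treated NSCs by 1.76 ± 0.19 and 1.45 ± 0.10 (adjusted p = 3.9e-05 and 2.5e-06). For the withdrawal of bFGF alone limma called 0 of 17 and limma-voom 0, and at an unadjusted p under 0.05 6 were higher and 3 lower.

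The list of ERK inhibitors held feedback inhibitors and also RAS GTPase-activating protein genes. Of the 5 lists tested, all chosen with earlier results of these data known, its median lay farthest below 0 where only bFGF differed. Of 15 tested, 9 fell and 1 rose between BMP4- and bFGF/BMP4-treated NSCs, or 66.7% beside 13.5% of all genes, with a median of -1.32 beside 0.00. Dusp6, the phosphatase that switches ERK off, fell by 4.86 ± 0.42 (adjusted p = 3.7e-05), from 39.2, 95.5 and 120.1 FPKM in the bFGF/BMP4 libraries to 1.67, 3.00 and 3.23 in the BMP4 libraries. Spry1, a Sprouty inhibitor of receptor signalling, fell by 4.66 ± 0.37 (adjusted p = 2.2e-05). Dusp5, a nuclear ERK phosphatase, went the other way and rose by 1.45 ± 0.22 (adjusted p = 0.0012), having fallen by 2.06 ± 0.22 in bFGF/BMP4- compared with bFGF/EGF-treated NSCs (adjusted p = 4.5e-05).

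Compared with bFGF/EGF-treated NSCs, 4 of the 15 inhibitors fell and 1 rose in bFGF/BMP4-treated NSCs and 9 fell and 0 rose in BMP4-treated NSCs. These counts were 33.3% and 60.0% of the list, beside 30.6% and 36.6% of all genes. At an adjusted p of at most 0.05 without the fold threshold, 11 were lower and 1 higher in BMP4-treated NSCs. With the fold threshold limma-voom called 9 lower and 0 higher there. Spry4 fell by 4.91 ± 0.36 in BMP4-treated NSCs (adjusted p = 2.4e-06), Rasal1, a RAS GTPase-activating protein gene, fell by 2.27 ± 0.36 in bFGF/BMP4-treated NSCs (adjusted p = 0.00058), and Rasa2, another, rose there by 1.32 ± 0.19 (adjusted p = 0.00031). Of the 16 inhibitor genes in the table, 1, Spred3, had a TGAATGAA in its promoter window, beside 6.63% of all promoters.

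The early response genes of growth factor signalling moved in another pattern. Of 18 tested, 11 fell and 1 rose in bFGF/BMP4- and 7 fell and 3 rose in BMP4- compared with bFGF/EGF-treated NSCs, with medians of -1.58 and -0.77. These were 66.7% and 55.6% of the list, beside 30.6% and 36.6% of all genes. Where BMP4-treated were compared with bFGF/BMP4-treated NSCs, 6 rose and 2 fell, 44.4% beside 13.5% of all genes, with a median of 0.50. Ier3, an early response gene, rose there by 2.70 ± 0.37 (adjusted p = 0.00063) and Fosl2, an AP-1 subunit, by 1.93 ± 0.15 (adjusted p = 1.8e-05), while Dusp1, a phosphatase of stress-activated kinases, fell by 1.67 ± 0.20 (adjusted p = 0.00024) and Ccnd1, the cyclin D1 gene, by 1.56 ± 0.22 (adjusted p = 0.00077). Egr1 and Ccnd1, like Ets1, were at their highest in bFGF/EGF-treated NSCs, and Ccnd1 was at 523 ± 47.6, 9.13 ± 3.48 and 2.91 ± 0.365 FPKM. Egr1 fell by 4.56 ± 0.40 in BMP4- (adjusted p = 7.8e-06) and Egr3, of the same zinc finger family, by 4.52 ± 0.35 in bFGF/BMP4-treated NSCs (adjusted p = 5.4e-06).

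**Figure D4:**
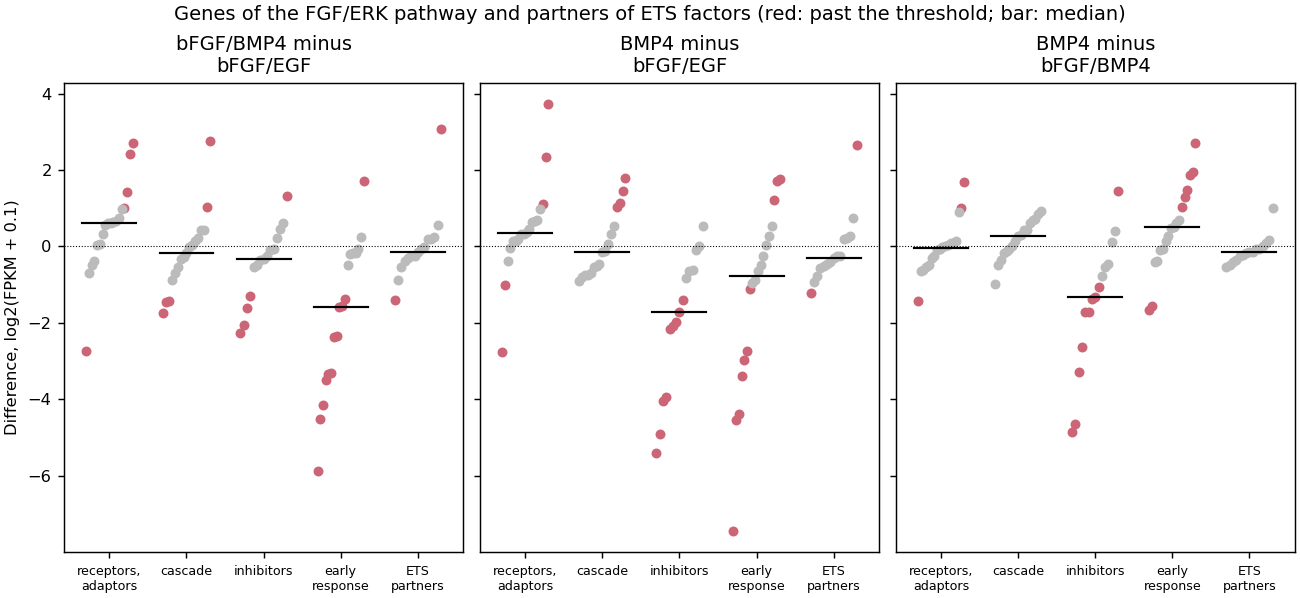
Differences on the log2(FPKM + 0.1) scale for each tested gene of 4 FGF/ERK lists and of the list of ETS regulators and partners, in the 3 comparisons, with 1 point per gene, red where past the threshold, and a bar at the median of the list. Between BMP4- and bFGF/BMP4-treated NSCs the inhibitors lie lowest, with a median of -1.32, and none of the cascade genes or ETS partners is red.

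The genes with the pattern most like each of the 6 over the 9 libraries were found by the root mean square difference between log2(FPKM + 0.1) profiles, each centred on its own mean, among 11213 protein-coding genes averaging 1 FPKM or more. The 3 nearest to Etv4 were Dusp6 at 0.552, Igfbp4 at 0.665 and Etv5 at 0.670. For Etv5 they were Trib2 at 0.358, Adam12 at 0.359 and Disc1 at 0.413, and Trib2 averaged 125 ± 12.9 FPKM at day 0, 80.6 ± 13.1 with bFGF/BMP4 and 8.37 ± 3.82 with BMP4 alone. The nearest to Etv1 were Ank3 at 0.231, Vash1 at 0.244 and Golm1 at 0.319.

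Near Ets1 lay Camk1g at 0.255, Lmnb1 at 0.324 and Kcnv1 at 0.328, and Lmnb1, the lamin B1 gene, was at 155 ± 46.6, 19.7 ± 3.23 and 6.33 ± 0.186 FPKM. Ets2 had Shq1 at 0.110, Mapk1ip1l at 0.112 and Nol11 at 0.119 as its nearest genes, and Elk3 had Ube3c at 0.0971, Spcs3 at 0.110 and Dph6 at 0.112. Among the 6 themselves the closest pair was Ets2 and Elk3, at 0.362, followed by Etv4 and Etv5 at 0.670, and the farthest was Etv4 and Elk3 at 2.44. These distances are a description over 9 libraries in 3 groups and carry no test.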

How the data were processed

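The authors deposited FPKM values per gene and library. The submitters' processing notes name fastp 0.19.7, HISAT2 2.0.5, featureCounts 1.5.0-p3 and mm39, and the annotation release and the strand setting of counting are not given in the sources used here. Each FPKM value was a whole number of fragments times a constant of the gene and of the library, within 0.02 of a whole number for 100% of 30860 genes above 0. The divisor of the libraries was 0.945 to 1.10 times their own fragments relative to each other, highest in bFGF/EGF replicate 3. The floor of detection was set at 3 fragments per library, which covers counting error only.

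Differences were fitted with limma 3.58.1 (R 4.3.3, with an intensity trend) on log2(FPKM + 0.1) over all 9 libraries, keeping genes that averaged 0.1 FPKM or more, with Benjamini-Hochberg adjustment over 20207 genes. The count model that the authors used was replaced, as the fit started from the deposited FPKM values. The raw counts that the paper gives in its supplement were not used. The pseudocount understates changes of low genes. The fit was tested on simulated data. Promoters were read from GRCm39 (the assembly called mm39) with GENCODE vM39 starts. Python 3.11.15, pandas 2.3.3, numpy 2.4.6 and matplotlib 3.10.9 were used.

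The 6 members, the gene lists and the rules were chosen with earlier results of these data known. The text names all members, each other ETS gene tested, from each list at most the 2 genes with the largest rise and fall past the threshold in a comparison, markers with the highest level, the 3 nearest genes in pattern, and neighbouring or overlapping genes. Cic, Nes, Sox2, Olig1, Olig2, Fgfr1, Fgfr3, Elk3's overlap partner and single markers given at 3 fragments or fewer are named for their roles. Alternatives were a pseudocount of 1, other filters and scalings, limma-voom on the rebuilt fragments, a replicate block, fits of only the groups compared, no fold threshold, and each library left out.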

Additional observations from a re-analysis of the deposited data

How the results depend on the processing

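No difference past its threshold reversed its sign under any of the 19 settings run. The difference of Etv4 between bFGF/BMP4- and bFGF/EGF-treated NSCs, -0.03, ranged from -0.14 with limma-voom to 0.09 with quantile normalization. A pseudocount of 1 shrank the log2 differences of low genes: in BMP4- compared with bFGF/EGF-treated NSCs to -2.11 for Etv1, -4.52 for Etv4, -3.31 for Ets1 and -1.32 for Ets2, where only bFGF differed to -1.48, -4.50 and -0.82 for Etv1, Etv4 and Ets1, and in bFGF/BMP4- compared with bFGF/EGF-treated NSCs to -2.49 for Ets1 and -1.12 for Ets2. With limma-voom Ets1 was -3.08 in that comparison. The small difference of Elk3 between BMP4- and bFGF/EGF-treated NSCs was -0.98 on the TPM scale, -0.82 with quantile normalization and -0.99 with limma-voom. Quantile normalization moved the median of all genes by -0.13 there and limma-voom by -0.11 in bFGF/BMP4- compared with bFGF/EGF-treated NSCs, with the other scalings under 0.1.

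Of the other ETS genes, a pseudocount of 1 or a filter at a mean FPKM of 1 left 2, 2 and 0 past the threshold in place of 4, 4 and 1, and limma-voom gave 2 between BMP4- and bFGF/BMP4-treated NSCs, where leaving out a library gave 0 to 1. Without a fold threshold the FGF/ERK genes past the threshold were 48 in BMP4- compared with bFGF/EGF- and 32 in BMP4- against bFGF/BMP4-treated NSCs, while the ETS regulators and partners were 6 in each comparison with bFGF/EGF-treated NSCs. For the latter list, leaving out a library gave 0 to 1 between BMP4- and bFGF/BMP4-treated NSCs. Deviations of same-numbered libraries from their group means had correlations of -0.084 to 0.125, with 1 of 9 over 0.1. For differently numbered libraries these were -0.154 to 0.081, with 0 of 18 over 0.1. Correlations over all genes cannot show whether same-numbered libraries came from a shared isolation, so pairing was not settled. With the replicate block, the counts of other ETS genes were 4, 4 and 1 and those of FGF/ERK genes 27, 28 and 21, as without it. The cause of each shift was not tested, apart from the pseudocount and filter, which act on low values by construction. With 18 to 49 fragments of Etv4 in a BMP4 library, its level there is known less closely than that of Etv5.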

Other observations

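The TGAATGAA octamer was looked at beyond the ETS genes, a choice made after its matches in Etv4 and Etv5 had been seen. Of the 139 tested genes other than the 6 members with a copy in the 250 bases before the start, 20.1% fell and 13.7% rose in bFGF/BMP4- compared with bFGF/EGF-treated NSCs, beside 16.1% and 17.0% of 13781 tested genes with a promoter. In BMP4- compared with bFGF/EGF-treated NSCs 19.4% fell and 18.7% rose, beside 16.9% and 22.3%. Between BMP4- and bFGF/BMP4-treated NSCs 7.91% fell, or 11 genes, and 14.4% rose, or 20 genes, beside 5.93% and 10.2%, and the medians were 0.03 and 0.01 on the log2 scale. Of the 21 genes with at least 2 copies, as in Etv4, 2 fell and 2 rose there.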
